A study of Mus musculus with 28 samples.

Results

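Kidney cortex of mice whose vitamin D receptor lacks the activation function 2 (AF2) region was compared with kidney cortex of mice with the intact receptor, across all expressed genes. The comparison took the 4 libraries titled Vdr AF2 kidney and the 6 titled Vdr+/+ kidney, 10 of the 28 libraries in the series, and 13502 of 30227 listed gene symbols had enough counts to be tested. The study set signalling through a receptor without its coactivator surface beside the absence of the receptor, in duodenum and in kidney, with mineral balance as its subject. The wild-type mice (WT) carried the normal Vdr gene, the AF2 mice carried the AF2 form of the gene, and 4 Vdr-/- libraries (KO, named in the count table as the Demay allele) entered the same fit. All of these mice were female, 8 weeks old and fed the rescue diet TD.96348, rich in calcium, phosphate and lactose, so the controls had this diet too. The labels do not name the strain, the litters or the days of collection, nor do they say whether each library came from a separate mouse, so the p-values measure the spread between these libraries.

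The vitamin D receptor is a nuclear receptor that binds the hormone calcitriol, pairs with a retinoid X receptor and sits on response elements made of paired hexamers. Hormone binding folds the last helix of the ligand-binding domain, the AF2 region, over the pocket, which makes the surface that coactivators with LXXLL motifs use. The kidney is the main site where calcitriol is made, by Cyp27b1, and where it is broken down, by Cyp24a1, and its distal tubule takes back calcium through Trpv5, calbindins and the calcium pump. Parathyroid hormone raises Cyp27b1 and FGF23 lowers it, and FGF23 acts through Klotho and FGF receptors that signal by ERK.

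The libraries were 3' tag libraries (QuantSeq), in which the reads of a transcript come from near its 3' end, so a level is given here as CPM, the counts of a gene scaled to a common library total, without division by gene length. Totals ran from 3725648 to 5788528 counts in the WT and AF2 libraries, and every count was even. Library AF2 4 stood apart. Its mean Spearman correlation with the other libraries was 0.933, against 0.950 to 0.964 for the other 13, and on the first principal component, which held 17.6% of the variance, it lay at 63.7 against -35.4 to 11.1. Of 4527 genes with an average level of at least 5 on the log2 CPM scale, 40 were more than 4-fold below the mean of the other AF2 libraries in AF2 4 and 0 were above it, while no other WT or AF2 library had more than 2 such low genes. Atp5md and Sdhd, which encode mitochondrial proteins, were among them (10.2 CPM for Atp5md in AF2 4 against 393 to 458 CPM in AF2 1 to 3, and 6.92 CPM for Sdhd against 113 to 166 CPM), and so was Cyp27b1. WT 1 also differed, with a summed level of 8790 CPM over the interferon and antigen presentation genes against 1574 to 1780 CPM in the other WT libraries. Results that rest on AF2 4 are given with and without it. The library codes fall into 3 runs of consecutive numbers, and the 4 AF2 libraries shared theirs with WT 5 and WT 6 only. No KO library shared a run with an AF2 library, and with the runs as a term 1 of the 45 genes called between AF2 and KO (0.333% of those tested) was still called, so each called difference from KO is given also with that term.

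In AF2 kidney 366 of the 13502 genes tested (2.71%) passed an adjusted p of 0.05 in edgeR's quasi-likelihood test, 146 of them higher than in WT (1.08%) and 220 lower (1.63%). Of the called genes, 131 differed by more than 2-fold (37 higher and 94 lower), and 86 differed by less than 1.5-fold. The median log2 fold change of all genes tested was 0.00469. The groups did not overlap in 639 genes (4.73%), of which 289 were called. The plot of fold change against level shows the higher calls led by Cyp27b1 and the lower calls spread over more genes.

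**Figure D1:**
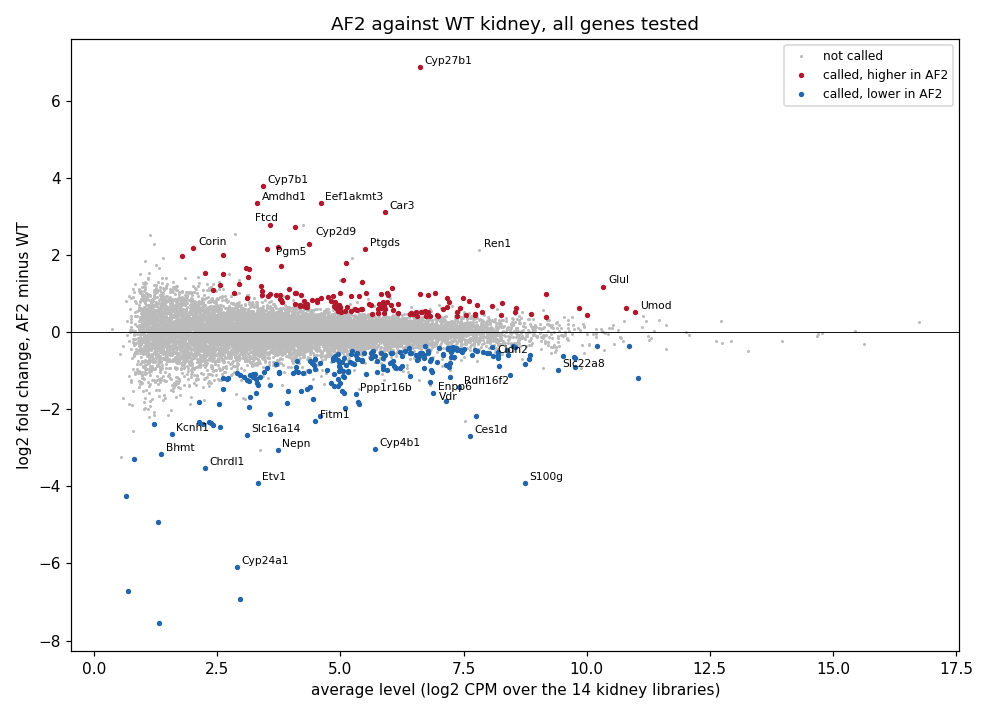
Log2 fold change of AF2 minus WT (vertical axis) against the average level in log2 CPM over the 14 kidney libraries (horizontal axis), 1 point for each of the 13502 genes tested. Red points are the 146 genes called higher in AF2, blue points the 220 called lower, and grey points were not called; Cyp27b1 lies at 6.88 and S100g at -3.92.

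Without AF2 4, 350 of 13766 genes were called (2.54%), 122 higher (0.886%) and 228 lower (1.66%). Of the 366 genes called with all 4 AF2 libraries 270 were called again, all 270 in the same direction, and 96 were not. Both fits share every library but AF2 4, so the shared direction is no independent check. Within the run of library codes that WT 5 and WT 6 share with the AF2 libraries, 116 genes were called, 38 higher and 78 lower, of which 106 were among the 366; with fewer WT libraries this comparison also has less power. Of the 60 called genes that the naming rule gave 31 kept their call within that run, and those described below that did not are marked as called over the 6 WT libraries only.

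**Figure D2:**
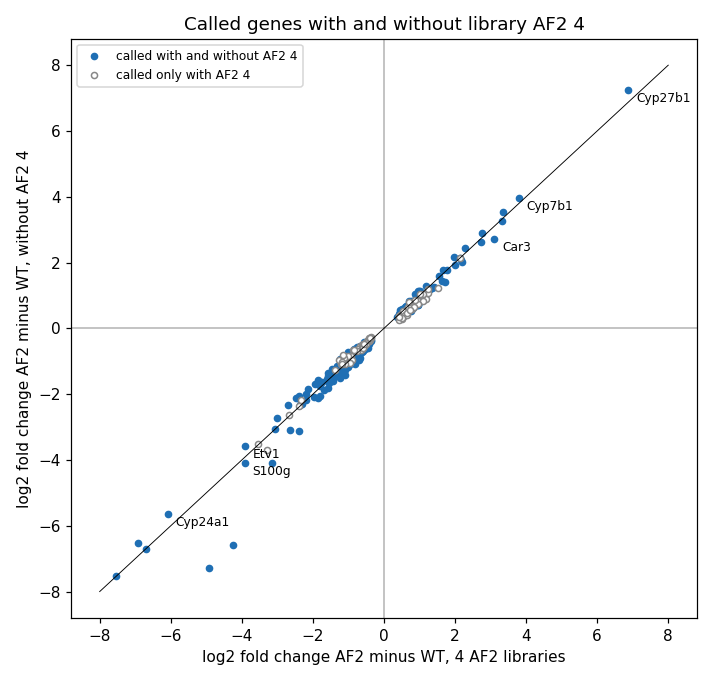
Log2 fold changes of called genes with all 4 AF2 libraries (horizontal axis) and without AF2 4 (vertical axis), for the called genes tested in both fits. Filled points were called in both, open points only with AF2 4, and the line marks equal values. No point lies in a quadrant of opposite signs, in fits that share every library but AF2 4.

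The promoter sequences of the mineral genes with the largest rise and the largest fall among those with an entry are shown because these genes lead the comparison. They are RefSeq sequences (GRCm38.p6, from 250 bases before to 50 after the start), and capitals mark each match to the hexamer AGGTCA or to the related hexamers, which were AGTTCA and GGGTCA and also GGTTCA, on either strand, the hexamers from which response elements of the receptor are built. The S100g promoter lies on the minus strand at chrX:162964550-162964849 and holds 3 matches. The Cyp27b1 promoter lies on the plus strand at chr10:127047996-127048295 and holds 1 match, after the start.
S100g: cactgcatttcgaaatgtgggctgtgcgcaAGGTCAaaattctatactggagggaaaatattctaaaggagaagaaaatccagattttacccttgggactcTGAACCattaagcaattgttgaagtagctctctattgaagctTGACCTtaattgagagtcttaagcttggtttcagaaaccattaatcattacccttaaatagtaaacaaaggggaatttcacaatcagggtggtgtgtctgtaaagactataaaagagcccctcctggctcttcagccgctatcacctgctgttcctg
Cyp27b1: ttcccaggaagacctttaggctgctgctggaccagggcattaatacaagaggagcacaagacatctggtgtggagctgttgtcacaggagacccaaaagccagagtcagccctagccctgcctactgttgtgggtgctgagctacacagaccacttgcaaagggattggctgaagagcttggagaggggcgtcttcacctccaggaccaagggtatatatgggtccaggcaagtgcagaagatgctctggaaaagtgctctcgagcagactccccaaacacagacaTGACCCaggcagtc
Among 10005 tested genes with a promoter entry 42.4% held at least 1 such hexamer, against 57.4% of 169 genes called lower and 41% of 105 called higher. A pair of these hexamers on the same strand with NNN between them occurred in 2 of the 10005 promoters and in 0 of those of called genes. A match here is a string of letters and not a site shown to be bound.

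Vdr mRNA (chromosome 15, 97854425 to 97910630, minus strand, GRCm38) was lower in AF2 kidney than in WT and higher than in KO. It measured 81.7, 85.0, 91.9 and 64.8 CPM in the 4 AF2 libraries, and 177, 201 and 212 CPM as the lowest, median and highest WT library. The groups did not overlap, and the 4 KO libraries lay lower still, from 7.94 to 22.1 CPM. The log2 fold change was -1.29 ± 0.17 (SE) against WT (adjusted p = 6.16e-05) and 2.26 ± 0.20 against KO (adjusted p = 1.29e-06). With runs of library codes as a term the difference from KO was 2.17 and its adjusted p 0.0555. A 3' tag need not cover the altered stretch, so these levels do not test the AF2 alteration itself. Of 19 tested genes of the receptor, its RXR partners and coregulators, Vdr was the only one called, and the median log2 fold change of the list was -0.02.

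Cyp27b1 (chromosome 10, 127048250 to 127053006, plus strand), the enzyme that makes calcitriol, rose more than any other called gene. It stood at 327, 294 and 248 CPM in AF2 1 to 3 and at 21.5 CPM in AF2 4, while the WT libraries ran from 0.733 to 3.46 CPM with a median of 1.74 CPM. Every AF2 library was above every WT library, although AF2 4 was far below its own group. The log2 fold change was 6.88 ± 0.78 (adjusted p = 0.000473), and 7.25 without AF2 4 (adjusted p = 6.49e-06). Against WT 5 and WT 6 alone it was 7.15 with an adjusted p of 0.0539, so the call then ended while the size did not fall. The KO mean was 115 CPM, and AF2 did not pass the test against KO (log2 0.94, adjusted p = 0.614).

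Cyp24a1 (chromosome 2, 170482708 to 170497145, minus strand), which breaks calcitriol down, was nearly absent from AF2 kidney. It measured 0, 0.467, 0.42 and 0 CPM in AF2 1 to 4, against a lowest, median and highest WT library of 8.42, 12.9 and 36.3 CPM. With 1 read taken as a pair of counts, AF2 held 2 reads in all and WT 233, a ratio of 74.3 (95% interval 20.3 to 617, counting error only). The fitted log2 fold change was -6.09 ± 0.66 (adjusted p = 3.46e-06). Of the 12 tested genes of vitamin D synthesis, breakdown and uptake, only this pair was called. The uptake receptors Lrp2 (1781 ± 130 CPM in WT and 1510 ± 283 CPM in AF2, mean ± SD) and Cubn (165 ± 17.4 and 128 ± 46 CPM) had adjusted p-values of 0.308 and 0.396.

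**Figure D3:**
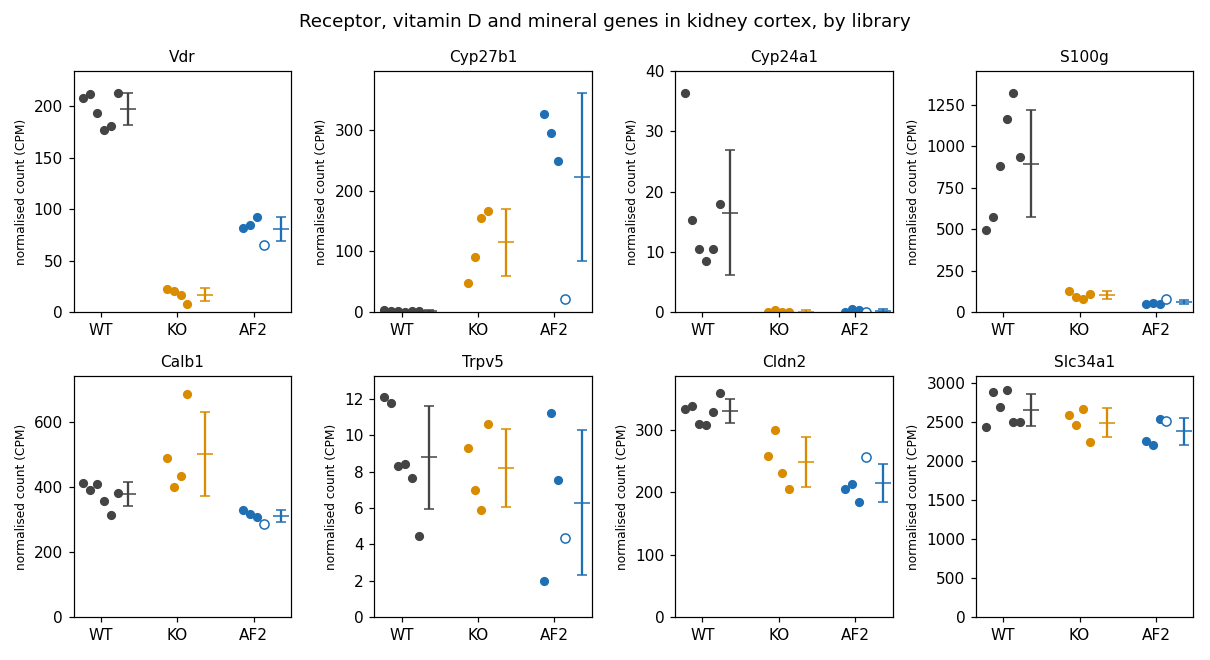
Level in CPM (vertical axes, linear from 0) of 8 receptor, vitamin D and mineral genes in each WT, KO and AF2 library, with group mean and SD beside the points; the open circle is AF2 4. Vdr, Cyp24a1, S100g and Cldn2 are below every WT library in all 4 AF2 libraries, Cyp27b1 is above, and Calb1, Trpv5 and Slc34a1 overlap.

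S100g (chromosome X, 162961992 to 162964599, minus strand), the small calcium-binding calbindin-D9k, fell most among the calcium transport genes. AF2 1 to 4 held 50.4, 56.5, 52.0 and 76.5 CPM, against 492, 907 and 1320.5 CPM as the lowest, median and highest WT library. The highest AF2 library was thus several-fold under the lowest WT library, and AF2 4 was not apart in this gene. The log2 fold change was -3.92 ± 0.32 (adjusted p = 2.7e-05). Of 14 tested genes of transcellular calcium transport, S100g alone was called (7.14% of the list), and the median of the list was -0.12. Calb1, the larger calbindin of the distal tubule, measured 377 ± 36.9 CPM in WT and 310 ± 17.7 CPM in AF2 (log2 -0.28, adjusted p = 0.25). It differed from KO, where the mean was 501 CPM (log2 -0.69 ± 0.13 for AF2 minus KO, adjusted p = 0.0106), but the call ended with runs of library codes as a term (-0.55, adjusted p = 0.9) and without KO 4 (adjusted p = 0.0977). The channel Trpv5 ranged from 2.02 to 11.2 CPM in AF2 and from 4.48 to 12.1 CPM in WT (log2 -0.49, adjusted p = 0.552). The pumps and the exchanger gave log2 values of -0.24 for Atp2b1 (adjusted p = 0.249, although its groups did not overlap), 0.15 for Atp2b4 and -0.18 for Slc8a1. Trpv6 had 8 reads in all WT libraries and 3 in all AF2 libraries and was not tested.

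Cldn2, the claudin that lets sodium and calcium pass between proximal tubule cells, fell. It measured 206, 213, 185 and 256 CPM in AF2 1 to 4 against 308, 331 and 359 CPM as the lowest, median and highest WT library. The groups did not overlap, and the log2 fold change was -0.62 ± 0.11 (adjusted p = 0.000859). Of 17 claudin and tight junction genes tested it was the only call. Cldn16 and Cldn19, which form the calcium and magnesium pathway of the thick ascending limb, had adjusted p-values of 0.577 and 0.486, and Cldn14 had 1 read in each group and was not tested.

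Of the phosphate transport genes 1 of 14 tested was called, the scaffold Slc9a3r1 (NHERF1), which holds the phosphate transporter at the brush border. It averaged 92.6 ± 26.4 CPM over the WT and 60.2 ± 2.89 CPM over the AF2 libraries (log2 -0.62 ± 0.15, adjusted p = 0.023), but the call ended without WT 2 or without any AF2 library (adjusted p up to 0.0816, and 0.0666 without AF2 4) and it held over the 6 WT libraries only. Slc34a1, the main phosphate transporter of the proximal tubule, measured 2653 ± 205 CPM in WT and 2378 ± 173 CPM in AF2 (log2 -0.16, adjusted p = 0.464). Slc34a3, Slc20a1 and Slc20a2 were not called either (adjusted p = 0.659, 0.836 and 0.638). Without AF2 4 this list held 1 call higher in AF2 and 0 lower, the higher one in a member not named here. Of 14 genes of parathyroid hormone, FGF23 and calcium sensing 0 were called by edgeR, 2 had an unadjusted p under 0.05, and DESeq2 and limma-voom called 0. They include Kl (log2 -0.42, adjusted p = 0.462), Fgfr1 (0.02), Pth1r (-0.14) and Casr (-0.03). Kl ranged from 121 CPM in AF2 4 to 286 CPM in AF2 1, and from 229 to 443 CPM in WT.

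Of 12 tested genes of ERK feedback and ETS factors, 3 were called lower and 0 higher, where 1.63% of all genes tested were called lower and 1.08% higher. The median log2 fold change of the list was -0.56 (-0.34 without AF2 4). Etv1, an ETS transcription factor induced by FGF signalling, measured 1.51, 2.8, 0.839 and 0.364 CPM in AF2 1 to 4 against 12.3, 21.6 and 25.3 CPM as the lowest, median and highest WT library (log2 -3.91 ± 0.51, adjusted p = 0.000123). Its close relative Etv5 fell by 2.36 on the log2 scale, from 8.42 to 1.65 CPM (adjusted p = 0.000754). Errfi1, a feedback inhibitor of the EGF receptor, fell from 163 to 95.3 CPM (adjusted p = 0.00512). The Etv1 groups were far apart, while those of Errfi1 overlapped, and Etv5 and Errfi1 were called over the 6 WT libraries only. The value of Etv1 was -4.53 without AF2 2, and that of Etv5 was -1.55 against WT 5 and WT 6.

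Among genes of the renin-angiotensin system, Ace, which makes angiotensin II, fell from 45.5 ± 4.77 to 20.2 ± 5.63 CPM (log2 -1.18, adjusted p = 2.7e-05). Cltrn, the collectrin that carries amino acid transporters to the surface, fell from 1003 ± 94.2 to 642 ± 45 CPM (log2 -0.64, adjusted p = 0.000128). Ren1, the renin gene, stood at 338, 358, 409 and 723 CPM in AF2 1 to 4 and at 9.75 to 143 CPM in WT (median 122 CPM). Its groups did not overlap, but the adjusted p was 0.0576 (log2 2.12 ± 0.52) and the gene was not called. WT 3, at 9.75 CPM, was far below the other WT libraries (112 to 143 CPM), and leaving out WT 3 or using DESeq2, limma-voom or halved counts brought Ren1 past the threshold. In the other 19 of 23 settings Ren1 was not called. Without AF2 4, its highest library, the log2 value was 1.80 and the adjusted p 0.144. The highest adjusted p among the alternative settings was 0.474.

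The other genes with the largest rises were led by Cyp7b1, an oxysterol and steroid 7-alpha-hydroxylase. AF2 1 to 4 held 39.8, 55.6, 8.39 and 19.3 CPM, and WT held 0.864, 1.97 and 4.48 CPM as lowest, median and highest (log2 3.79 ± 0.56, adjusted p = 0.00187). The KO mean was 2.85 CPM, and AF2 minus KO was 3.34 on the log2 scale (adjusted p = 0.043). That call ended with runs as a term (2.25, adjusted p = 0.919) and without any of 9 libraries (adjusted p up to 0.171, and 0.0592 without AF2 4). Eef1akmt3, a lysine methyltransferase of the elongation factor eEF1A, rose in all 4 AF2 libraries, to 42.9, 47.7, 49.5 and 56.8 CPM, from a WT median of 4.95 CPM (log2 3.34 ± 0.33, adjusted p = 1.19e-05). Car3, a carbonic anhydrase of low activity, stood at 111, 115, 110 and 249 CPM against a WT range of 3.61 to 27.8 CPM (log2 3.11, adjusted p = 0.00176). It was highest in AF2 4, without which the log2 value was 2.72. Cyp2d9 rose from 6.89 to 32.8 CPM (log2 2.27, adjusted p = 5.04e-05) and Pgm5 from 4.69 to 20.7 CPM (log2 2.15, adjusted p = 2.79e-06). Corin, a protease that activates atrial natriuretic peptide, had means of 1.8 and 8.06 CPM (adjusted p = 0.00714), and Ptgds, the prostaglandin D synthase, 15.3 and 67.2 CPM (adjusted p = 0.0377, and 0.0793 without AF2 4). Ptgds lost its call without any of 10 libraries (adjusted p up to 0.0834). Cyp7b1, Car3, Corin and Ptgds were called over the 6 WT libraries only, and against WT 5 and WT 6 the value of Cyp7b1 was 2.97.

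**Figure D4:**
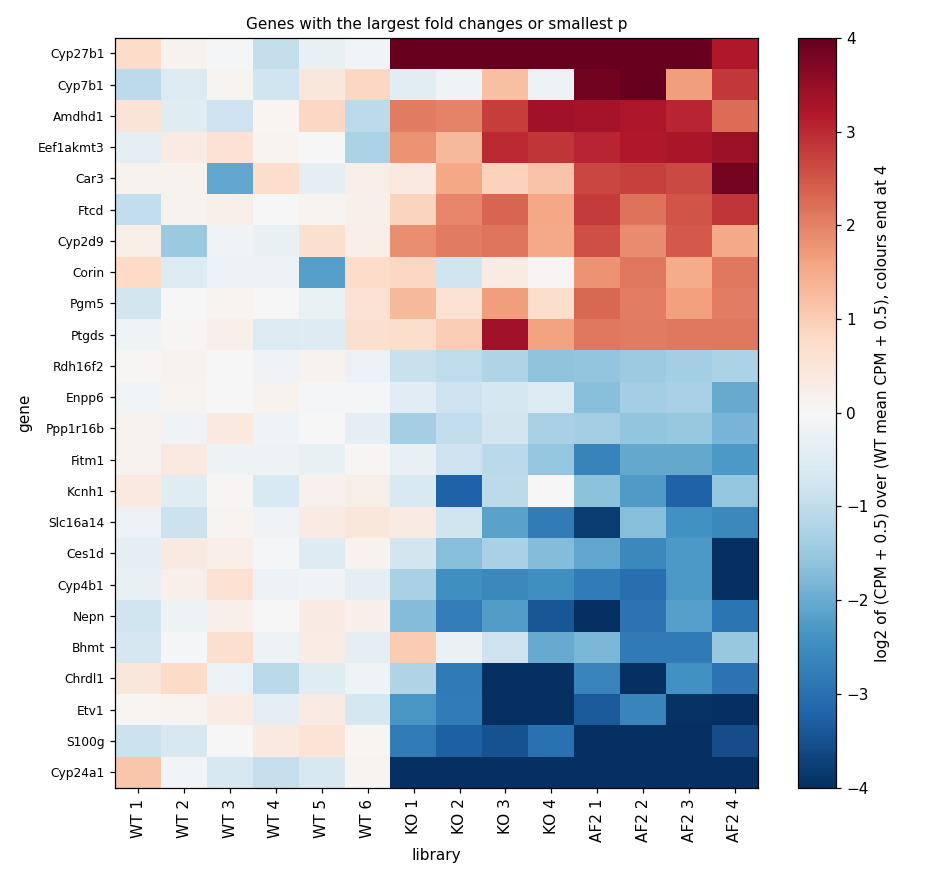
Log2 of CPM plus 0.5 over the WT mean plus 0.5 (colour, ending at 4 in either direction) for 24 genes with the largest fold changes or the smallest p, with 1 column for each WT, KO and AF2 library. All AF2 columns lie on the same side of white in each row, which follows from picking genes whose AF2 and WT groups did not overlap. AF2 4 is paler than AF2 1 to 3 for Cyp27b1 and darker for Car3.

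Among the largest falls, Nepn (nephrocan), a secreted leucine-rich repeat protein, measured 1.01, 2.8, 5.04 and 2.91 CPM in AF2 1 to 4 against 14.3, 27.3 and 31.5 CPM as the lowest, median and highest WT library (log2 -3.06 ± 0.34, adjusted p = 2.72e-06). Chrdl1, a secreted inhibitor of bone morphogenetic proteins, averaged 8.97 CPM in the WT and 0.749 CPM in the AF2 libraries (log2 -3.53, adjusted p = 0.028), and an adjusted p of 0.109 without AF2 4. Bhmt, which remethylates homocysteine with betaine, had 45 reads in WT and 3 in AF2, a ratio of 9.57 (95% interval 3.07 to 48.1), with a log2 fold change of -3.16 (adjusted p = 0.0223) and of -4.09 without AF2 4. Slc16a14, an orphan member of the monocarboxylate transporter family, fell from 13.3 to 2.04 CPM (adjusted p = 0.0316, and 0.131 without AF2 4), and the potassium channel Kcnh1 from 4.2 to 0.642 CPM (adjusted p = 0.0297). The calls of these last 4 genes also ended without 3 to 9 of the 14 libraries, each taken singly, with adjusted p-values of up to 0.131. These 4 were called over the 6 WT libraries only, whereas Nepn was also called against WT 5 and WT 6.

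Genes with tight replicates had some of the smallest p-values. Enpp6, a choline-releasing phosphodiesterase, stood at 50.4, 64.0, 67.6 and 40.4 CPM in AF2 1 to 4 and at 154, 162 and 181 CPM as the lowest, median and highest WT library. It was lower than in WT by 1.57 on the log2 scale (-1.57 ± 0.13, adjusted p = 6.3e-09) and lower than in KO as well (-0.95, adjusted p = 0.000293, KO mean 108 CPM). Fitm1, a protein of lipid droplet formation, fell from 34.5 to 6.88 CPM (log2 -2.32, adjusted p = 9.77e-08) and also differed from KO (-1.42, adjusted p = 0.00467). With runs as a term neither difference from KO was called, at -0.84 for Enpp6 and -1.50 for Fitm1 (adjusted p = 0.71 for both). Rdh16f2, a retinol dehydrogenase family member, fell from 255 to 95.5 CPM (adjusted p = 1.62e-08) and Ppp1r16b, a regulatory subunit of protein phosphatase 1, from 59.6 to 19.6 CPM (adjusted p = 2.15e-07), with adjusted p-values against KO of 0.476 and 0.203.

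The gene lists described above and below are to be read beside the 2.71% of all genes that were called. Over the 27 pathway lists 422 of 468 distinct genes were tested, with 20 called higher and 33 lower, 12.6% together. The list members were chosen with earlier results of these data known, so a share above 2.71% is no test of enrichment. The plot of called members by list shows where these calls lie.

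**Figure D5:**
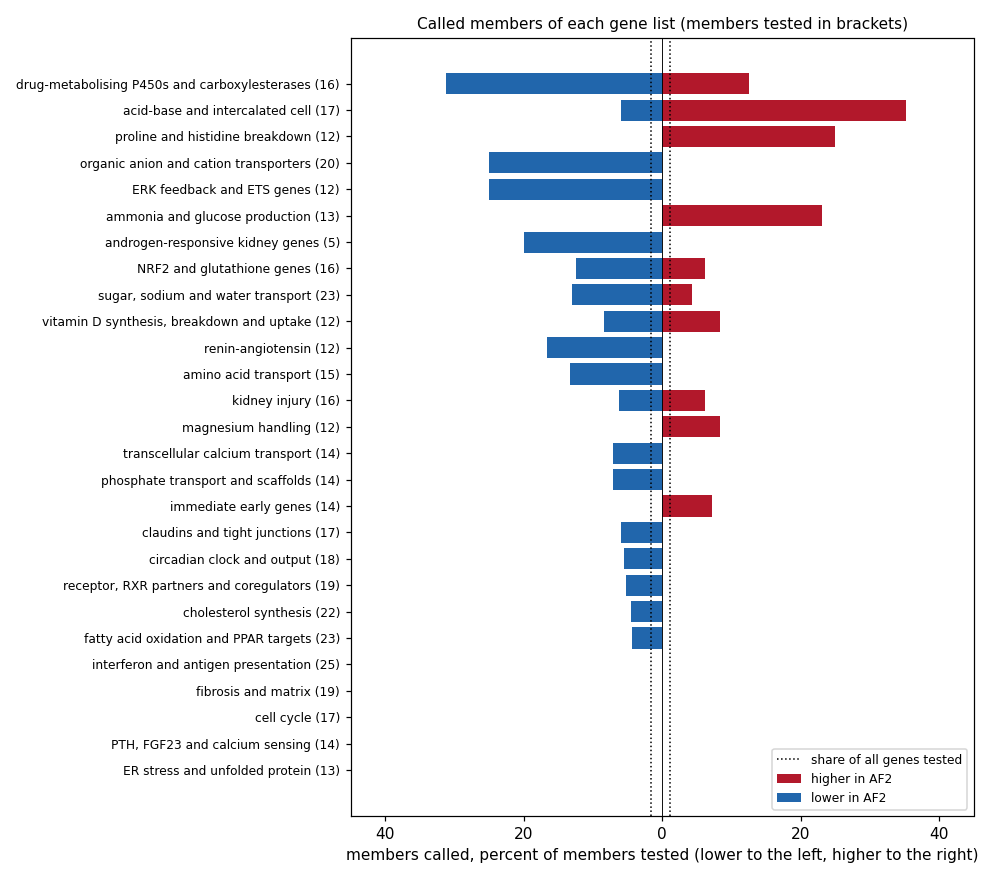
Members called lower (blue, to the left) and higher (red, to the right) in AF2, as a percentage of the tested members of each pathway list, whose number stands in brackets. The members were chosen with earlier results of these data known. Dotted lines mark the shares of all genes tested, 1.63% lower and 1.08% higher; P450 and carboxylesterase genes, organic ion transporters and ERK and ETS genes extend furthest to the left and acid-base genes furthest to the right.

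Drug-metabolising P450s and carboxylesterases had 5 of 16 tested genes called lower and 2 higher, with a median log2 fold change of -0.50. The lung and kidney P450 Cyp4b1 measured 13.6, 11.7, 19.3 and 4.01 CPM in AF2 1 to 4 and 75.1, 86.2 and 148 CPM as the lowest, median and highest WT library (log2 -3.02 ± 0.41, adjusted p = 0.00151). The carboxylesterase Ces1d fell from 334 to 52 CPM (log2 -2.70, adjusted p = 0.015), with AF2 4 lowest at 6.92 CPM, and was called over the 6 WT libraries only. Cyp2j5, an arachidonic acid epoxygenase of the proximal tubule, fell from 1008 ± 41.2 to 632 ± 25.2 CPM (log2 -0.67, adjusted p = 2.7e-05) and was lower than in KO (-0.48, adjusted p = 0.0225). This last call ended with runs as a term (-0.45, adjusted p = 0.9) and without KO 2, KO 4, AF2 1 or AF2 2 (adjusted p up to 0.142). Cyp2a5 and Ces1e were the other two lower calls, and Cyp7b1 and Cyp2d9 the higher ones. Of 5 tested androgen-responsive kidney genes, Odc1, the first enzyme of polyamine synthesis, was called, and it fell from 49.2 to 17.1 CPM (log2 -1.53, adjusted p = 2.68e-05).

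Organic anion and cation transporters were called lower in 5 of 20 tested genes and higher in 0, and 17 of the 20 had a lower mean in AF2 (median log2 -0.27). Slc22a8 (OAT3), which takes up organic anions from the blood side, measured 447, 497, 447 and 517 CPM in AF2 1 to 4 against 706, 951 and 1151 CPM as the lowest, median and highest WT library (log2 -0.97 ± 0.14, adjusted p = 0.000122). Abcc2, an export pump of the brush border, fell from 237 to 157 CPM (adjusted p = 0.00267). Slco1a6 fell from 173 to 121 CPM (adjusted p = 0.00621) and Slc22a30 from 13.5 to 4.61 CPM (adjusted p = 0.00497). Abcc4 was the fifth. Slco1a6 was called over the 6 WT libraries only.

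Acid-base and intercalated cell genes had 6 of 17 tested genes called higher and 1 lower, with a median log2 fold change of 0.31. Without AF2 4 the counts were 4 and 1. Aqp6, a channel of intercalated cell vesicles, stood at 74.6, 80.8, 81.0 and 119 CPM in AF2 1 to 4 and at 28.0, 43.8 and 53.8 CPM as the lowest, median and highest WT library (log2 1.00 ± 0.17, adjusted p = 0.00072). The ammonia channel Rhcg rose from 45.8 to 78.8 CPM (log2 0.78, adjusted p = 0.000961). Slc4a1, Atp6v0d2, Rhbg and Car3 were the other higher calls. Slc4a1 and Rhbg were called in only 9 and 7 of the 14 fits that each left out 1 library. Car4, the membrane carbonic anhydrase of the proximal tubule and thick limb, fell from 126 to 83 CPM (adjusted p = 0.00551), over the 6 WT libraries only.

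Ammonia and glucose production genes had 3 of 13 tested genes called higher and 0 lower, although the median of the list was negative (-0.16). Glul, which makes glutamine from ammonia, measured 2143, 1772, 1971 and 1388 CPM in AF2 1 to 4 and 652, 758 and 1087 CPM as the lowest, median and highest WT library (log2 1.18 ± 0.14, adjusted p = 6.36e-06). Fbp1, an enzyme of gluconeogenesis, rose from 717 ± 56.6 to 1105 ± 93.5 CPM (log2 0.62, adjusted p = 0.000284). Slc38a3, a glutamine transporter, rose from 21.2 to 42.5 CPM (adjusted p = 0.000928), over the 6 WT libraries only, and its groups overlapped because WT 6 stood at 36.4 CPM.

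Of 12 tested genes of proline and histidine breakdown 3 were called, all higher and all in the histidine branch. Uroc1, Amdhd1 and Ftcd catalyse successive steps from urocanate to glutamate. Amdhd1 measured 21.7, 20.1, 17.6 and 9.84 CPM in AF2 1 to 4 against 0.56, 1.45 and 3.34 CPM as the lowest, median and highest WT library (log2 3.35 ± 0.37, adjusted p = 2.57e-06). Ftcd rose from 4.81 to 32.1 CPM (log2 2.73, adjusted p = 5.02e-08) and Uroc1 from 37.6 to 62.2 CPM (log2 0.72, adjusted p = 0.000357). The 3 enzymes kept their calls without AF2 4 and against WT 5 and WT 6.

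Lists of nutrient and salt transport held fewer calls. Amino acid transport had 2 of 15 tested genes called lower, Cltrn and the transporter Slc6a20b (175 to 134 CPM, adjusted p = 0.0327, and 0.0617 without AF2 4). Sugar, sodium and water transport had 3 of 23 lower, namely the sugar transporter Slc5a10 (330 to 232 CPM), the lactate and short-chain fatty acid transporter Slc5a8 (87.2 to 59.3 CPM) and the water channel Aqp11 (92.3 to 65.6 CPM). Slc5a8 was also lower than in KO (log2 -0.82, adjusted p = 0.00847), where its mean was 104 CPM, but not called with runs as a term (-0.95, adjusted p = 0.71). In the thick ascending limb the sodium-potassium-chloride cotransporter Slc12a1 rose from 856 ± 118 to 1155 ± 98.5 CPM (log2 0.43, adjusted p = 0.0203). Umod, the uromodulin that this segment secretes, stood at 2317, 2771, 2202 and 2671 CPM in AF2 1 to 4 and at 1423, 1817 and 2002 CPM as the lowest, median and highest WT library (log2 0.52 ± 0.11, adjusted p = 0.00565). Leaving out a library ended the calls of Slc6a20b (5 of 14 libraries), Slc5a8 (4), Aqp11 (4) and Slc12a1 (4), with adjusted p-values of up to 0.0842, 0.0927, 0.113 and 0.0834, and of 0.0541 for Slc5a8 without AF2 4. Umod was also called against WT 5 and WT 6, and Slc6a20b, Slc5a10, Slc5a8, Aqp11 and Slc12a1 were not.

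Fatty acid oxidation had 1 of 23 called (Acot12, 43 to 29.4 CPM, adjusted p = 0.0371). Among NRF2 and glutathione genes Hmox1, which degrades haem, rose from 5.86 to 27.1 CPM with AF2 libraries between 8.39 and 43.4 CPM (adjusted p = 0.00988), while Gsta2 and Gpx1 fell from 284 to 194 CPM and from 2035 to 1569 CPM (adjusted p = 0.00546 and 0.0164). Complement C3 rose from 17.8 to 61.2 CPM (adjusted p = 0.0059) and Sox9, a factor of tubule repair, fell from 7.66 to 2.12 CPM (adjusted p = 0.00963), the calls among 16 injury genes. Jun rose from 23.3 to 37.8 CPM (adjusted p = 0.0318) and Hlf, a clock output factor, fell from 182 to 116 CPM (adjusted p = 0.00221). Of these 8 genes Gsta2 alone kept its call against WT 5 and WT 6. Leaving out a library ended the calls of Acot12 (8 of 14 libraries), Jun (7), Gpx1 (AF2 2 or AF2 3) and Sox9 (AF2 3), with adjusted p-values of up to 0.138, 0.133, 0.0622 and 0.0503. The log2 value of Sox9 was -1.87 with all libraries, -2.76 without AF2 2 and -1.13 against WT 5 and WT 6. The lists of fibrosis and matrix (19 genes tested), interferon and antigen presentation (25), unfolded protein response (13) and cell cycle (17) had 0 calls by edgeR, by DESeq2 and by limma-voom, where before adjustment 3, 0, 2 and 1 members had a p below 0.05. The interferon list had a median log2 of -0.35 with all libraries and 0.02 without WT 1.

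Defining markers of kidney cortex were present, with all 14 proximal tubule markers tested. Their summed level was 21339 to 25953 CPM in WT and 19018 to 23127 CPM in AF2. Of these markers 5 had a higher mean in AF2 and 9 a lower one, with a median log2 of -0.22. Acsm2 and Fbp1 were called higher and Slc22a8 lower. Of the 5 adrenal markers listed in the count table, Cyp11b1, Cyp21a1 and Hsd3b1 were at 0 in all 10 libraries. The 5 together summed to 0.864 to 2.80 CPM in WT and 0.729 to 1.87 CPM in AF2. Podocyte markers summed to 454 to 566 CPM in AF2 and 327 to 405 CPM in WT, and among them Synpo, which organises the actin of the foot processes, rose from 40.3 to 65.9 CPM (adjusted p = 0.00133). Of the 8 podocyte markers 5 had a higher mean in AF2 and 3 a lower one, and 6 were not called. Intercalated cell markers summed to 377 to 485 CPM in AF2 and 243 to 343 CPM in WT, with 3 of 7 called higher, beside the acid-base calls above. The 485 CPM was AF2 4, while AF2 1 to 3 held 377 to 418 CPM, and 2 of the 7 were called when AF2 4 was left out. By mean, 6 of the 7 were higher in AF2 and 1 lower. Thick ascending limb markers summed to 4252 to 4680 CPM in AF2 and 2994 to 4066 CPM in WT, with 2 of 7 called, Slc12a1 and Umod. These 2 genes made up much of the sum, with AF2 means of 1155 and 2490 CPM. By mean, 5 of the 7 markers were higher in AF2 and 2 lower, Cldn19 among the lower (log2 -0.28). In these bulk samples more cells of a type and more RNA per cell cannot be told apart, and the part of cell composition in the results was not tested. Of 10 macrophage and dendritic cell markers Csf1r alone was called, and it was higher in AF2 (log2 0.71, adjusted p = 0.00282). With WT 1 included the list went the other way, with 6 of the 10 lower by mean and a median log2 of -0.42. The median without WT 1 was not taken, so the direction of the list without that library is not known. The markers summed to 191 to 304 CPM in AF2. In WT 1 their sum was 980 CPM, against 151 to 203 CPM in the other WT libraries. The juxtaglomerular list held only 2 markers, Ren1 and Akr1b7, and 0 were called. They summed to 343 to 735 CPM in AF2 and 10.1 to 148 CPM in WT. Ren1, described above, made up nearly all of each sum, so these sums add little to its own values.

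Genes beside the altered Vdr locus were examined because a targeted allele can carry flanking chromosome of another strain. Within 10 Mb of Vdr on chromosome 15, 155 genes were tested and 5 were called, 3.23%, close to the 2.71% of all genes. They were Aqp6, Methig1 and Csad, higher, and Cela1 and Mettl7a1, lower, named here after their values were seen. Methig1, about 2.44 Mb from Vdr, averaged 26.9 CPM in the 6 WT libraries, 50.8 CPM in AF2 and 1.16 CPM in KO, and AF2 minus KO was 5.53 ± 0.31 on the log2 scale (adjusted p = 3.88e-13), a call that held with runs as a term (5.74, adjusted p = 1.55e-08). For these 5 genes the genotype and the flanking chromosome cannot be told apart. Around Cyp27b1, 9 genes within 100 kb were tested and Eef1akmt3, 6.74 kb away on the opposite strand, was the only call. Mettl1, which lies between them at 1.89 kb from Cyp27b1, had an adjusted p of 0.702.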

How the data were processed

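Kidney cortex RNA was read by 3' tag sequencing, and the authors deposited raw counts per gene symbol for 14 kidney libraries (6 WT, 4 KO and 4 AF2). The build was mm10 and limma 3.34.9 was listed, per the submitters' processing notes; aligner, counter and use of strand: not given in the sources used here. Therefore overlapping and antisense genes, and near-identical family members such as the Cyp2d, Ces1 and Slc22a genes, may share reads. All deposited counts were even, and halved counts were an alternative.

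Counts of the 14 libraries were fitted in edgeR 4.0.16 (R 4.3.3) with genotype as the only term, TMM scaling, filterByExpr by group and the robust quasi-likelihood F test, two-sided, with Benjamini-Hochberg adjustment over 13502 genes and calls at 0.05. AF2 was contrasted with WT and with KO. Both contrasts share the AF2 libraries. CPM values use TMM-scaled library sizes, means are ± SD with n = 6 WT and n = 4 AF2 or KO libraries, and errors of log2 fold changes are SE. Intervals and the floor of 3 reads cover counting error only.

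Genes were named by a rule: Vdr; a mineral panel; among called genes, the 10 with the largest rise and the 10 with the largest fall at an average log2 CPM of at least 1 whose groups did not overlap, leaving out predicted or unnamed symbols; the 5 next smallest p-values; and up to 4 called members of each list. The members and lists were chosen with earlier results of these data known. Alternatives were DESeq2 1.42.0, limma-voom (limma 3.58.1), RLE factors, no filter, the 10 AF2 and WT libraries alone, a replicate block, runs of library codes and leaving out each library. The test was checked on simulated data. No libraries were identical, and the smallest chi-square per degree of freedom between replicates was 1.96. Symbols were matched to GENCODE M21 (97.3%). The duodenum table was not used here. Some genes that the rule gave are not reported here.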

Additional observations from a re-analysis of the deposited data

Results flagged for a closer look

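In groups of 4 or 6 libraries, a library was singled out where its distance to the nearest other library, as a share of the whole range of the group, passed Dixon's 95% critical value. Among 156 groups 11 were singled out, where chance gives about 1 in 20. In WT, Ren1 was low in WT 3 (9.75 CPM, the others 112 to 143), Slc20a2 in WT 4 (18.3 CPM, the others 25.2 to 28.5), Cubn in WT 6 (131 CPM, the others 165 to 179) and Ftcd in WT 1 (2.16 CPM, the others 4.76 to 5.78). Cyp24a1 was high in WT 1 (36.3 CPM, the others 8.42 to 17.9), Hmox1 in WT 2 (11.7 CPM, the others 4.03 to 5.25) and Slc38a3 in WT 6 (36.4 CPM, the others 15.2 to 21.2). In AF2, Car3 and Aqp6 were high in AF2 4 (249 CPM with the others at 110 to 115, and 119 CPM with the others at 74.6 to 81.0). Car4 and Sox9 were high in AF2 2 (91.1 CPM with the others at 79.4 to 81.0, and 5.14 CPM with the others at 1.01 to 1.26).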

How the results depend on the processing

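The 366 calls of AF2 against WT became 530 with DESeq2, 350 with limma-voom, 368 with RLE factors, 380 with halved counts and 325 with the 10 AF2 and WT libraries alone. Without the filter on low counts there were 590 (241 higher, 349 lower). With runs of library codes as a term there were 121 (43 higher, 78 lower), and with WT 5 and WT 6 as the WT group 116 (38 higher, 78 lower); the cause was not tested. Leaving out each library in turn gave 294 to 365 calls, 106 to 140 higher and 177 to 229 lower, and 195 of the 366 were called in all 14 such fits. For AF2 against KO the 45 calls became 151 with DESeq2 (85 higher, 66 lower), 193 without the filter (105 higher, 88 lower), and 1 with runs as a term (1 higher, 0 lower, against 735 genes at an unadjusted p under 0.05). Halved counts gave 48 higher calls. Leaving out each library gave 22 calls (without KO 2) to 78 (without WT 1), 12 to 47 higher and 9 to 31 lower.

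Whether the replicate numbers pair the libraries could not be decided from 4 AF2 libraries. Deviations of same-numbered AF2 and WT libraries correlated at -0.0232 to 0.171, and 2 of 4 AF2 libraries correlated best with their own number. WT 1 was the best match of AF2 1, AF2 2 and AF2 3. With the replicate block 338 genes were called against WT (135 higher, 203 lower) and 52 against KO.

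Of the 60 called genes given by the naming rule, 29 kept call and direction under all alternatives, 31 lost the call under at least 1, and 0 reversed. Among 18 uncalled ones, 5 changed sign, each between values not past the threshold. Trpv5, at -0.49 in the report, gave 0.0425 with runs as a term and 0.0393 with WT 5 and WT 6, Slc8a1 0.0675 and 0.0660, and Fgfr1 -0.0980 and -0.102. Casr gave 0.0085 with the replicate block. Leaving out each library in turn, Slc20a1 ranged from -0.0026 (without AF2 4) to 0.136, Fgfr1 from -0.0441 (without AF2 2) to 0.0683, and Casr from -0.318 (without AF2 4) to 0.183 (without AF2 2). Depth limits genes with few reads: Trpv6 and Cldn14 could not be tested.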

Other observations

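Some genes with large differences fell outside the naming rule and are given here, chosen after their values were seen. Gulo, the last enzyme of vitamin C synthesis, had 71 reads over the 6 WT libraries and 0 over the 4 AF2 libraries. With a floor of 3 reads over the group it was at least 15.1-fold lower in AF2 (adjusted p = 0.00436 in edgeR), it was at 0 in all 4 KO libraries too, and the WT libraries ranged from 0 to 7.16 CPM. Rhox6, a homeobox gene, had 40 reads in WT and 0 in AF2, at least 8.5-fold lower on the same floor. The predicted gene Gm6300 had 238 reads in WT and 1 in AF2, a ratio of 152 (95% interval 27 to 6020, counting error only).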
